A study of Mus musculus with 20 samples.

Results

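The thermogenic genes and uncoupling proteins described here are Ucp1, Ucp2, Ucp3, Dio2, Prdm16, Ppargc1a, Ppargc1b, Adrb3, Elovl3 and Tmem26. These genes were taken by name from the annotation of the array, with earlier results of these data known. They are 10 of the 37074 distinct gene names on the array, and all 10 are among the 25618 names that were tested. They carry 15 probes, of which 14 were tested because they were well above background on at least 6 of the 20 arrays. The other probe, the second of Tmem26, was well above background on 5 arrays.

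Expression was measured in visceral adipose tissue (VAT) from the epididymal fat pad of 20 male F3 C57BL/6J mice, with 1 array of 1 colour per mouse. The mice descended from 2 lineages, a control lineage whose breeding diet held high-oleic sunflower oil and an omega-3 lineage whose breeding diet held fish oil rich in eicosapentaenoic acid (EPA). The Ref group (n = 6) was of the control lineage and ate a low-fat reference diet for several months, the HFoleic group (n = 6) was of the control lineage and ate a high-fat, high-sucrose diet, and the HFepa group (n = 8) was of the omega-3 lineage and ate that same obesogenic diet. Mice were fasted before they were killed, and only RNA that passed a quality limit went on an array. No omega-3 mice on the low-fat diet were analysed here, so diet and lineage cannot be told apart in HFepa vs. Ref, and HFepa vs. HFoleic is the comparison of lineages on 1 diet. Values are log2 of the median spot intensity after quantile normalization between arrays, called the log2 level here, and levels of different probes are not compared as amounts of RNA. Mice are named by the number that their labels give them. Of each gene the brightest tested probe is given first. A gene was called changed at a Benjamini-Hochberg adjusted p under 0.05 over all 39390 tested probes (limma), and these p-values measure the spread between single mice.

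The markers of white adipocytes were bright on every array, with a mean log2 level of 16.1 to 16.6 over 10 genes. Genes of the testis and epididymis, organs that adjoin this fat pad, stood apart in 5 arrays. The 4 tested testis genes averaged 9.06 in HFoleic mouse 5, 8.41 in Ref mouse 6, 8.27 in Ref mouse 3 and 8.10 in HFepa mouse 4, against 5.86 to 6.60 in the other mice. The 3 tested epididymis genes averaged 7.58 in HFepa mouse 2, 7.49 in Ref mouse 3, 6.91 in Ref mouse 6 and 6.38 in HFoleic mouse 5, against 5.17 to 5.80 in the other mice. Main counts are also given without these 5 arrays. The distance of each whole array from its own group set no array apart. That distance is a median over all tested probes, so it does not register a small number of very high genes. In HFoleic mouse 6, HFepa mouse 7 and Ref mouse 2, 53, 44 and 30 genes lay more than 1 log2 unit above all other arrays. In the other mice 0 to 14 genes did.

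Brown and beige adipocytes make heat when noradrenaline binds beta-adrenergic receptors, of which Adrb3 is the main one in rodent fat, and cyclic AMP then drives fat breakdown and the transcription of Ucp1. The protein UCP1 lets protons flow back across the inner mitochondrial membrane without making ATP, so that fuel is burned for heat. UCP2 and UCP3 are related carriers for which such a heat-making role is not established: Ucp2 is found in many tissues, macrophages among them, and Ucp3 mainly in skeletal muscle and brown fat. The epididymal depot of the mouse is white fat in which beige cells are sparse. In whole tissue, fewer cells of a type and less RNA per cell cannot be told apart.

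In HFoleic vs. Ref, which asks what the obesogenic diet did in the control lineage, 6 of the 10 genes changed. Ucp2, Ucp3, Dio2 and Prdm16 were higher in the HFoleic group, by 1.96, 1.73, 1.56 and 1.29-fold. Ppargc1a, the coactivator that drives mitochondrial biogenesis, was 1.64-fold lower and Adrb3 1.85-fold lower. Ucp1 itself, Ppargc1b, Elovl3 and Tmem26 did not pass the test. Over all tested genes, 15.2% were called higher and 16.7% lower in this comparison, against 4 and 2 of these 10. The median log2 difference was 0.13 over the 10 genes and -0.04 over all tested genes. Without the 5 arrays with testis or epididymis genes, limma called 0 of the 10 genes (5 HFoleic and 4 Ref mice), and 5 had an unadjusted p under 0.05, against 16.2% of all probes called and 33.8% under that unadjusted p. The 6 differences kept their direction in that fit, 5 of them at nearly the same size, while that of Ppargc1a shrank from -0.71 to -0.44 on the log2 scale. Adjusted p-values of the 6 genes were there between 0.0781 for Dio2 and 0.167 for Ppargc1a.

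**Figure D1:**
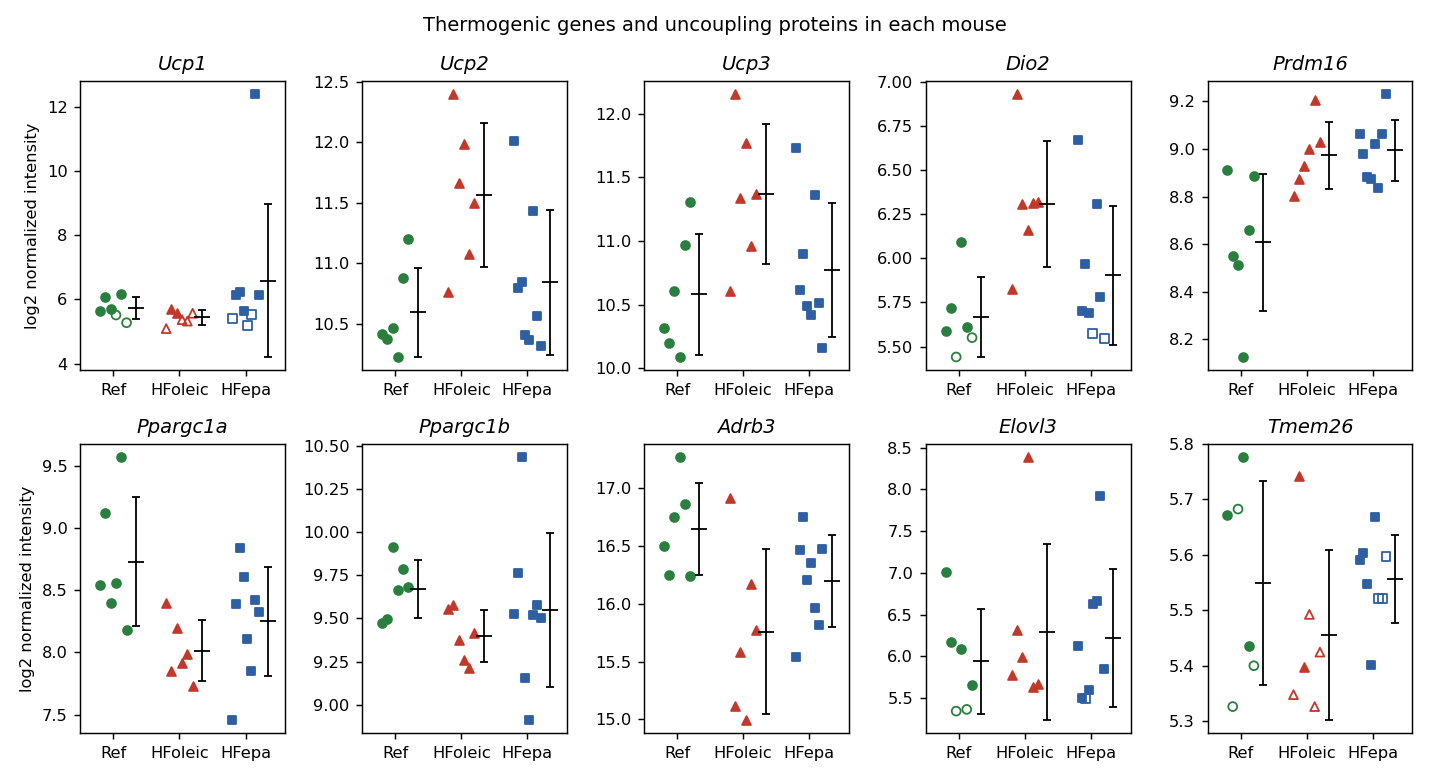
Log2 level (vertical axis of each panel, log2 normalized intensity, with its own range and not starting at 0) of the brightest tested probe of each gene in every mouse, with the group mean and SD beside the points (Ref and HFoleic n = 6, HFepa n = 8). Open symbols are values not well above background, and a single HFepa mouse stands at 12.40 in the Ucp1 panel.

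The receptor comes first in the pathway. Adrb3 (probe on chromosome 8, 28336268 to 28336327 of mm9) had log2 levels of 16.24 to 17.27 in the Ref group, with a median of 16.62. In the HFoleic group they ran from 15.00 to 16.91 around a median of 15.68. Of the 6 HFoleic mice 5 lay below every Ref mouse, and only HFoleic mouse 1, at 16.91, lay within the Ref range. The difference was -0.89 ± 0.27 (SE, adjusted p = 0.019), and the second Adrb3 probe gave -0.94 ± 0.32 (adjusted p = 0.03). Within slides 1, 2 and 3, each of which holds arrays of every group, it was -0.48, -1.64 and -0.93. Slide 2 holds only 1 HFoleic array, that of mouse 4, so for every gene the slide 2 differences that involve HFoleic rest on that mouse. Without HFoleic mouse 6 or HFoleic mouse 4 the difference was -0.73 or -0.76 and was no longer called, with an adjusted p of 0.0016 to 0.054 over the fits without 1 mouse. Th and Npy, the 2 tested genes of a 4-gene list for sympathetic nerves, averaged 6.33 to 6.65 in the Ref group and 6.80 to 7.57 in the HFoleic group. Th, the enzyme that limits noradrenaline synthesis, had a difference of -0.03 (adjusted p = 0.833). Npy, which codes for a cotransmitter of these nerves, was higher by 1.33 (adjusted p = 0.0082), from a dim Ref mean of 5.25. Dbh and Slc6a2 did not pass the filter. In the HFepa group the mean of Th and Npy was 7.53 in mouse 1 and 7.32 in mouse 6, against 6.29 to 6.57 in the others. HFepa mice 1 and 6 also had the highest macrophage gene levels of that group. The cell source of Npy was not tested.

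Among the transcriptional regulators, Prdm16, which keeps adipocytes on the brown and beige course, was higher in HFoleic mice. Its log2 levels were 8.13 to 8.91 in the Ref group (median 8.60), 8.80 to 9.20 in the HFoleic group (median 8.96) and 8.84 to 9.23 in the HFepa group (median 9.001). In the HFoleic group 4 of 6 mice and in the HFepa group 5 of 8 lay above the highest Ref mouse. The difference was 0.37 ± 0.11 in HFoleic vs. Ref (adjusted p = 0.0153) and 0.21, 0.37 and 0.48 within slides 1, 2 and 3.

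Ppargc1a (chromosome 5, 51848928 to 51848987) moved the other way. Its log2 levels were 8.18 to 9.57 in the Ref group (median 8.55) and 7.73 to 8.40 in the HFoleic group (median 7.95). Of the HFoleic mice 4 lay below the lowest Ref mouse, and the highest Ref mice were mouse 6 at 9.57 and mouse 3 at 9.12, which are also the Ref mice with testis and epididymis genes. The difference was -0.71 ± 0.23 (adjusted p = 0.0213), and -0.65 ± 0.17 on its second probe (adjusted p = 0.00848). Within slides 1, 2 and 3 it was -0.82, -0.52 and -0.89. Without Ref mouse 3 or Ref mouse 6 it was -0.64 or -0.55 and was not called, with an adjusted p of 0.0105 to 0.0561 over the fits without 1 mouse. Ppargc1b, its close relative, had log2 levels of 9.48 to 9.91 in the Ref group and 9.21 to 9.58 in the HFoleic group. Here 4 HFoleic mice lay below every Ref mouse, but the difference of -0.27 ± 0.17 did not pass the test (adjusted p = 0.241) and was -0.04 on the other probe.

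Ucp2 and Ucp3, which are neighbours on chromosome 7, were both higher in the HFoleic group. The log2 levels of Ucp2 were 10.23 to 11.20 in the Ref group (median 10.44), 10.76 to 12.40 in the HFoleic group (median 11.58) and 10.31 to 12.01 in the HFepa group (median 10.68). HFoleic mouse 4 was the highest of all mice and HFoleic mouse 1 the lowest of its group, and 4 of 6 HFoleic mice lay above every Ref mouse. The difference in HFoleic vs. Ref was 0.97 ± 0.29 (adjusted p = 0.0156), and 1.11 ± 0.26 on the second probe (adjusted p = 0.00377). Within slides 1, 2 and 3 it was 1.02, 1.68 and 0.70. For Ucp3 the log2 levels were 10.09 to 11.30 in the Ref group (median 10.46), 10.61 to 12.15 in the HFoleic group (median 11.35) and 10.16 to 11.73 in the HFepa group (median 10.56). Again 4 HFoleic mice lay above every Ref mouse, and the difference was 0.79 ± 0.28 (adjusted p = 0.0383), or 0.99, 1.46 and 0.36 within slides 1, 2 and 3. This call was the least stable of the 6: it was kept in 12 of the 20 fits without 1 mouse, in which the difference ran from 0.63 without HFoleic mouse 4 to 0.94 without HFoleic mouse 1 and the adjusted p from 0.0141 to 0.105. The mice whose removal ended it were HFoleic mice 4, 5, 6 and 8 and Ref mice 2, 3, 4 and 5.

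Across the 20 mice Ucp2 and Ucp3 had almost the same profile, with Pearson's r = 0.98 and Spearman's rho = 0.98 over points that share arrays and groups. Ucp3 was the gene most like Ucp2 among all tested genes, and r was 0.97 over deviations from the group means. Next came S1pr2 and D9Ertd115e for Ucp2 (r = 0.93 each), and Fam168a and D9Ertd115e for Ucp3 (r = 0.92 and 0.90). The probes of the pair lie 17351 bases apart on mm9, at 107630399 to 107630458 for Ucp3 and 107647809 to 107647868 for Ucp2, with 0 genes between the pair in the RefSeq table. Expression of skeletal muscle genes, given here because muscle is a main site of Ucp3, averaged 6.83 to 7.16 in the Ref group and 7.13 to 7.35 in the HFoleic group over 10 tested genes of an 11-gene list. Of these, 3 were higher in HFoleic vs. Ref, Pvalb by 2.50 and Myh1 and Myh2 by only 0.41 and 0.28. The median difference over the list was 0.05, so its higher mean rests largely on Pvalb. Acta1, with the brightest probe of the list, was at -1.02 without passing the test (adjusted p = 0.0845). The part of muscle RNA in the result for Ucp3 was not tested.

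**Figure D2:**
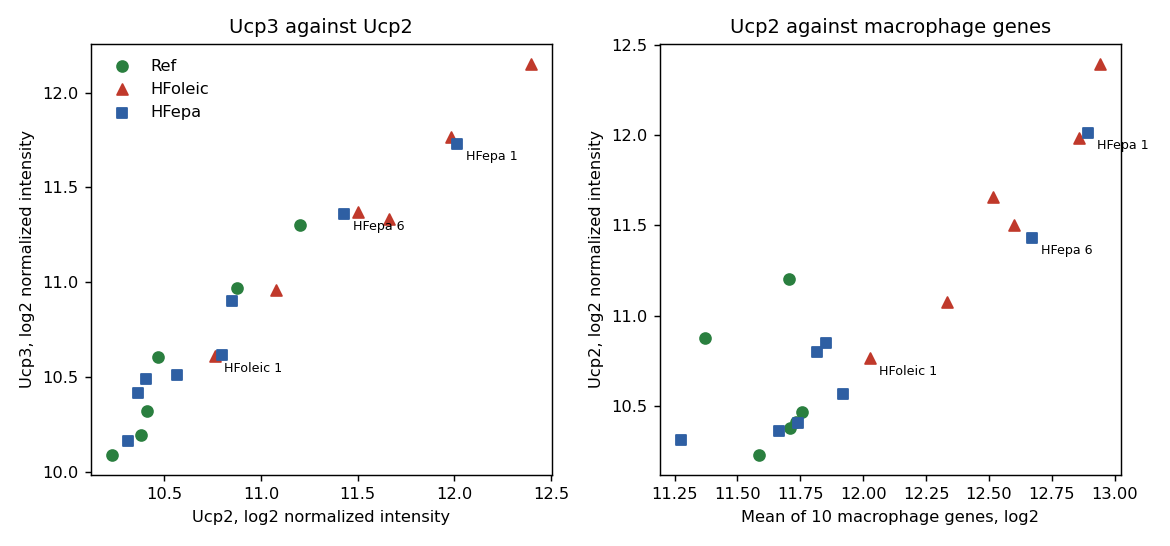
Left, log2 level of Ucp3 against that of Ucp2 in each of the 20 mice. Right, log2 level of Ucp2 against the mean log2 level of 10 macrophage genes. HFepa mouse 1 lies with the high HFoleic mice in both panels, HFepa mouse 6 lies within the HFoleic range, and HFoleic mouse 1 lies low in both.

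The 250 bases before the RefSeq start of the 3 uncoupling protein genes are shown (GRCm38.p6, plus strand), since the pair that moved together and the gene that did not can be read side by side. They are chr8:83290098-83290347 for Ucp1, chr7:100493108-100493357 for Ucp2 and chr7:100472741-100472990 for Ucp3. Capitals mark TGACG (the core of the cyclic AMP response element), AGGTCA (a half-site of nuclear receptors), GGGCGG (the GC box) and TATAAA (the TATA box), each searched on both strands, and no match overlaps another.
Ucp1: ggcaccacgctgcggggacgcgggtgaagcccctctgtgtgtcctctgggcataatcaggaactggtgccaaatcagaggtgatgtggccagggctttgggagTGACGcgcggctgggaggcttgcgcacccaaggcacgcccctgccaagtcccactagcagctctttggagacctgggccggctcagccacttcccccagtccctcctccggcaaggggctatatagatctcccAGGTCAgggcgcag
Ucp2: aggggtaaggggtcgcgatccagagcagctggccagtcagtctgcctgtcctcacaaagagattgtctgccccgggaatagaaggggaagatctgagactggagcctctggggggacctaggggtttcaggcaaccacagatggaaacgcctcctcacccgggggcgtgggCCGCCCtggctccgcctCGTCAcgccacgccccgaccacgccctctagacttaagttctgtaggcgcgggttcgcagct
Ucp3: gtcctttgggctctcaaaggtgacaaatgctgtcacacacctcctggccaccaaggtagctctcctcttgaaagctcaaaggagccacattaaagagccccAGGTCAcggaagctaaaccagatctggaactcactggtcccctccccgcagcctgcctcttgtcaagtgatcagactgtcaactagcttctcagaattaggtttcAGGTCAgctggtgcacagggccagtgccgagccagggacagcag
The window of Ucp1 holds TGACG with its first base 147 bases before the start and AGGTCA at 14 bases. That of Ucp2 holds the reverse complements of GGGCGG and TGACG at 79 and 62 bases and no AGGTCA. That of Ucp3 holds AGGTCA at both 149 and 44 bases, and none of the others. TATAAA has no match in the 3 windows. Among 32851 windows of this length 17.8% hold TGACG, 14% AGGTCA, 32.7% GGGCGG and 12.4% TATAAA, so a match is a description of these letters and not of a binding site.

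Dio2 (chromosome 12, 91963235 to 91963294), which codes for the deiodinase that turns thyroxine into active T3 inside the cell, was dim but higher in the HFoleic group. Its log2 levels were 5.44 to 6.09 in the Ref group (median 5.60) and 5.83 to 6.93 in the HFoleic group (median 6.31). It was well above background in 4 of 6 Ref, 6 of 6 HFoleic and 6 of 8 HFepa mice, and 5 HFoleic mice lay above the highest Ref mouse. Within slides 1, 2 and 3 the difference was 0.45, 1.11 and 0.78. Over all mice it was 0.64 ± 0.19 (adjusted p = 0.013), and 0.45 to 1.33 over 12 other ways of processing (adjusted p of 0.00076 to 0.0829), the highest being on the background-subtracted signal. The 3 genes most like Dio2 were Rilpl2, Acer3 and Havcr2 (r = 0.94, 0.93 and 0.93, n = 20).

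Elovl3 (chromosome 19, 46209325 to 46209384), an elongase of very long fatty acids that is strongly induced in brown fat by cold, showed single high mice in place of a shift of a group. Its log2 levels ran from 5.34 to 7.005 in the Ref group, from 5.63 to 8.39 in the HFoleic group and from 5.50 to 7.92 in the HFepa group. The high values belonged to HFoleic mouse 6, HFepa mouse 7 and Ref mouse 2. The HFoleic mean was 6.30 ± 1.06 (SD, n = 6) with mouse 6 and 5.88 ± 0.28 (SD, n = 5) without it. The difference in HFoleic vs. Ref was 0.36 ± 0.46 (adjusted p = 0.597) and turned to -0.06 without HFoleic mouse 6. The 3 genes most like Elovl3 were Cyp2c37, Cyp2c50 and Hsd17b2 (r = 0.93, 0.90 and 0.89, n = 20), the first 2 of them cytochromes P450 abundant in liver. The liver list had its highest mean level in HFoleic mouse 6, at 12.84 over 6 genes, against 7.95 to 11.77 in the other mice, and Alb, with the brightest probe of the list, was at 14.94 in that mouse. The part of liver RNA in the Elovl3 values was not tested.

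Tmem26 (chromosome 10, 68243267 to 68243326), a surface marker of beige cells, was dim. Its tested probe was well above background in 3 of 6 Ref, 2 of 6 HFoleic and 5 of 8 HFepa mice, and its log2 levels were 5.33 to 5.78 over all mice. The groups overlapped, and the difference in HFoleic vs. Ref was -0.09 ± 0.08 (adjusted p = 0.42).

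Ucp1 was dim in every mouse but 1 (probe on chromosome 8, 85821788 to 85821847). Its log2 levels were 5.28 to 6.19 in the Ref group (median 5.67), 5.09 to 5.71 in the HFoleic group (median 5.47) and 5.20 to 12.40 in the HFepa group (median 5.88). It was well above background in 4 of 6 Ref, 2 of 6 HFoleic and 5 of 8 HFepa mice. HFepa mouse 7, at 12.40, lay 71.8-fold above the next array, with a median spot intensity of 5229 before normalization against 34 to 80 in the other mice. The HFepa mean was 6.59 ± 2.38 (SD, n = 8) with that mouse and 5.76 ± 0.41 (SD, n = 7) without it. The difference in HFepa vs. Ref was 0.85 ± 0.77 with it (adjusted p = 0.571) and 0.02 without it. In HFoleic vs. Ref it was -0.29 ± 0.83 (adjusted p = 0.826), a spread to which that 1 mouse contributes because the 3 groups share it. The HFoleic vs. Ref difference ran from -1.03 on the background-subtracted signal to -0.12 without the 5 arrays with testis or epididymis genes. It was called in 0 of 11 other ways of processing.

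Some other brown and beige adipocyte genes were high in that mouse too. Of the 23 tested genes of the list 6 were at their highest of the 20 arrays there and 7 lay below the median of the other mice, among them Kcnk3 at 9.01 and Slc36a2 at 12.85. The mean over the list was 10.13 in HFepa mouse 7 and 9.01 to 9.53 in the other mice. Cidea, a lipid droplet protein used as a brown fat marker, was at 14.01, against at most 12.57 in any other mouse. Fabp3, a fatty acid binding protein of brown fat, heart and muscle, was at 12.69 against at most 8.61. Cox7a1 (13.06, next 11.71) and Cox8b (13.59, next 13.04), both cytochrome c oxidase subunits of brown fat and muscle, were also the highest of the 20 arrays there. So were Cpt1b (9.24, next 7.70) and Ppara (11.01, next 10.47). Prdm16 at 9.06, Ppargc1a at 8.42, Dio2 at 5.78, Adrb3 at 15.82 and Tmem26 at 5.52 lay within the range of the other HFepa mice. Elovl3, at 7.92, was the highest of the HFepa group.

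Genes known from other tissues were high on the same array. Upk1a, a uroplakin of the bladder lining, was at 13.31 against at most 8.06 in the other mice. Krt5 (11.43), Krt20 (11.15), Krt7 (10.52), Ly6d (13.07) and Upk1b (10.77) were also at their highest of the 20 arrays. The mean over 6 tested genes of an 8-gene urothelium list was 11.71 in HFepa mouse 7 and 6.22 to 7.67 in the other mice, while Upk2 and Upk3a did not pass the filter over the 20 arrays and their values in that mouse were not looked at. That list and the heart muscle list were added after values were seen. Of 4 heart muscle genes 3 were at their highest there, and Myl7 lay below the median of the other mice. Myh6 was at 7.44 against at most 5.90, Tnnt2 at 7.30 against 6.88 and Nppa at 6.272 against 6.268. Of 10 skeletal muscle genes 2 were at their highest, among them Tnni2 at 9.50 against at most 8.59, and 4 lay below the median of the other mice. The genes most like Ucp1 over the 20 mice were Upk1a, Sprr1a and Aqp3 (r = 0.98, 0.98 and 0.95), a likeness that rests on this 1 array. Without it they were Klk1b5, Parl and Zfp623 (r = 0.77, 0.76 and 0.75, n = 19). The part of RNA from another tissue in the Ucp1 value was not tested.

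**Figure D3:**
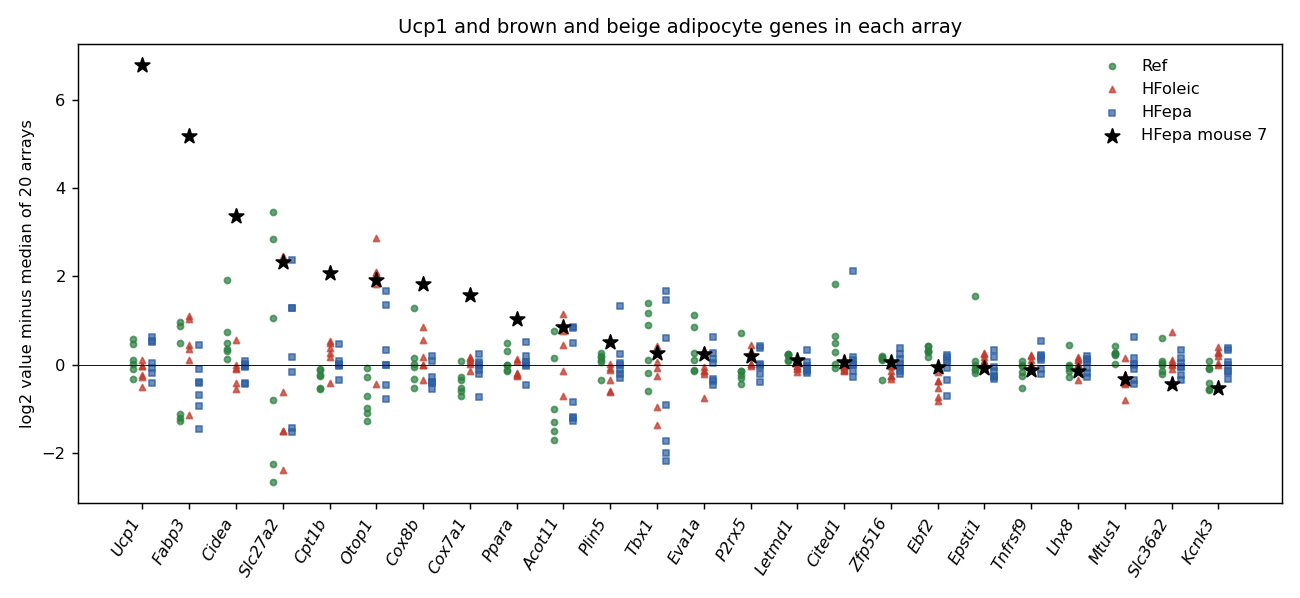
Log2 level of Ucp1 and 23 brown and beige adipocyte genes in each array, minus the median of the 20 arrays for that gene (vertical axis, log2). Stars are HFepa mouse 7, which is highest for Ucp1, Fabp3, Cidea, Cpt1b, Cox8b, Cox7a1 and Ppara.

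In HFepa vs. Ref, limma called 0 of the 10 genes, against 1.03% of all tested genes called higher and 1.42% lower. At an unadjusted p under 0.05 there were 2 of the 10 genes, Prdm16 and Ppargc1a, against 21.6% of all tested genes, so the share was near the background. Without the 5 arrays with testis or epididymis genes the counts were 0 by limma and 1 unadjusted, against 0% of all probes called and 16.7% unadjusted. Prdm16 was the nearest to a call, with a difference of 0.39 ± 0.10 (adjusted p = 0.0509), and it was called in 4 of 12 other ways of processing (adjusted p of 0.048 to 0.187). On slides 1, 2 and 3 its difference was 0.37, 0.39 and 0.39. Ppargc1a had -0.48 ± 0.21 (adjusted p = 0.205), Adrb3 -0.45 ± 0.26 (adjusted p = 0.335), Ucp2 0.25 ± 0.27 (adjusted p = 0.652), Ucp3 0.19 ± 0.26 (adjusted p = 0.724) and Dio2 0.24 ± 0.17 (adjusted p = 0.47). Without HFepa mouse 1 the last 3 were 0.081, 0.057 and 0.13. Ppargc1a was at -0.31 without Ref mouse 6 and at -0.57 to -0.25 over 12 other ways of processing. The second Adrb3 probe gave -0.65 ± 0.30 (limma, unadjusted p = 0.041, adjusted p = 0.22). On that probe 6 of 8 HFepa mice lay below every Ref mouse. HFoleic vs. Ref and HFepa vs. Ref share the same Ref mice, so their values are not independent of each other.

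In HFepa vs. HFoleic, the comparison of the lineages on the obesogenic diet, 0 of the 10 genes were called by limma and 3 had an unadjusted p under 0.05. Of all tested genes, 0% were called higher and 0% lower, and 20.8% had an unadjusted p under 0.05. Without the 5 arrays with testis or epididymis genes limma called 0 of the 10 genes and 0% of all probes. In that fit 0 of the 10 genes against 15.3% of all probes had an unadjusted p under 0.05. The 3 genes were Ucp2 at -0.72 (95% interval -1.29 to -0.16, adjusted p = 0.154), Ucp3 at -0.59 (-1.14 to -0.05, adjusted p = 0.209) and Dio2 at -0.41 (-0.77 to -0.04, adjusted p = 0.197). Of the 8 HFepa mice 4 lay below every HFoleic mouse for Ucp2 and for Ucp3, and 5 for Dio2. On the second Ucp2 probe 6 lay below every HFoleic mouse, with a difference of -0.80 (-1.31 to -0.29, adjusted p = 0.126). Within the slides the Ucp2 difference was -0.52, -1.52 and -0.66. HFepa mice 1 and 6 set the upper end of the group, with Ucp2 at 12.01 and 11.43 and Ucp3 at 11.73 and 11.36. Without HFepa mouse 1 the difference was -0.89 for Ucp2 (adjusted p = 0.0341) and -0.51 for Dio2 (adjusted p = 0.0461), and both were then called. In that fit 2867 of the 39390 tested probes were called, against 1 with all mice. Adjusted p-values of Ucp2 and Dio2 were 0.0341 to 0.357 and 0.0461 to 0.445 over the fits without 1 mouse. For Adrb3 the difference was 0.44 (-0.10 to 0.97, adjusted p = 0.344), for Ppargc1a 0.24 (-0.21 to 0.68, adjusted p = 0.562) and for Prdm16 0.02 (-0.19 to 0.23, adjusted p = 0.94). That of Adrb3 ran from 0.28 without HFoleic mouse 6 to 0.67 without HFoleic mouse 1. That of Ppargc1a ran from 0.15 without HFepa mouse 3 to 0.35 without HFepa mouse 1. For Ucp1 the difference was 1.14 (-0.47 to 2.75, adjusted p = 0.419), and 0.31 without HFepa mouse 7.

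**Figure D4:**
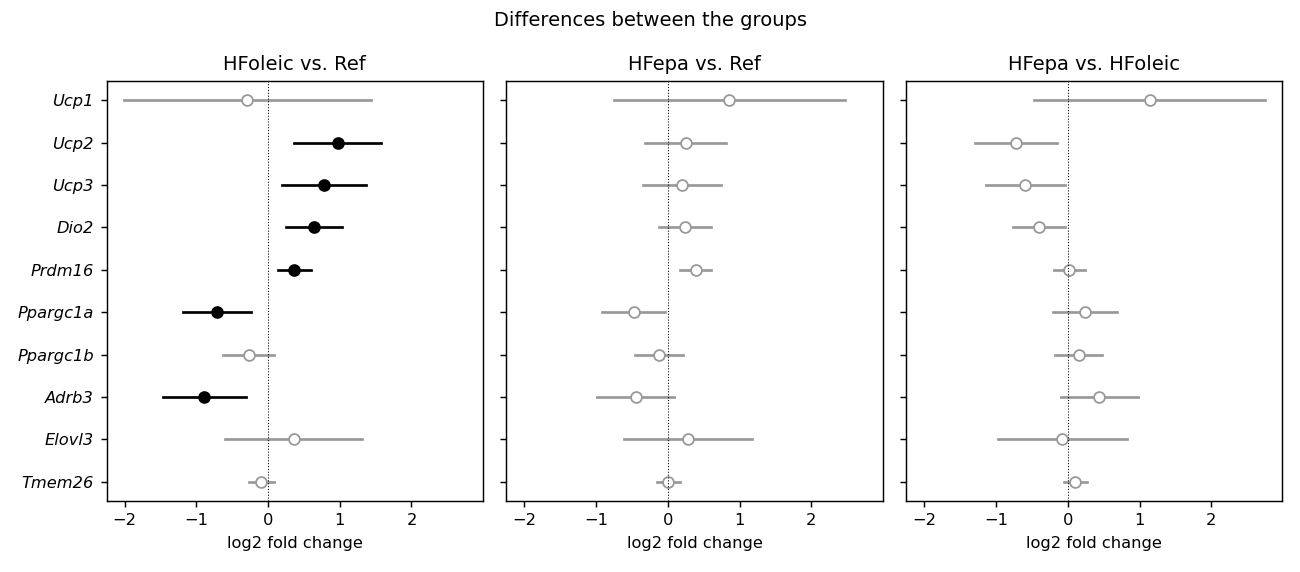
Log2 fold change (horizontal axis) of the 10 genes in each comparison, from the brightest tested probe, with the 95% confidence interval of the limma fit as a line. Filled points passed the adjusted p threshold of 0.05, which 6 genes did in HFoleic vs. Ref and 0 in the other comparisons. The Ucp1 points of both HFepa comparisons include HFepa mouse 7.

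Macrophage genes were high in most, but not all, of the mice in which Ucp2, Ucp3 or Dio2 were high. Ref mouse 7, for example, had Ucp2 at 11.20 and Ucp3 at 11.30, above HFoleic mice 1 and 7, with a macrophage mean of 11.70. Dio2 in that mouse was at 5.55, not well above background. The mean log2 level of 10 macrophage genes was 11.4 to 11.8 in the Ref group and 12.0 to 12.9 in the HFoleic group, where mouse 1 was lowest and mouse 4 highest. In the HFepa group it was 12.9 in mouse 1 and 12.7 in mouse 6 and 11.3 to 11.9 in the other 6. In HFoleic vs. Ref 6 of the 10 macrophage genes were higher and 1, Cd163, was lower, and Lyz2, with the brightest probe, differed by 1.60 (adjusted p = 0.00108). All 7 genes of a list for lipid-associated macrophages were higher, among them the receptor gene Trem2 by 4.22 (adjusted p = 0.00067), and Cd9, with the brightest probe, by 0.87 (adjusted p = 0.0207). In HFepa vs. Ref 0 genes of either macrophage list were called by limma, with 5 of 10 and 6 of 7 at an unadjusted p under 0.05 and list medians of 0.30 and 2.10. In HFepa vs. HFoleic 0 were called either, with 6 of 10 and 6 of 7 at that unadjusted p and list medians of -0.58 and -2.12, beside the differences of -0.72, -0.59 and -0.41 of Ucp2, Ucp3 and Dio2. Trem2 was at -2.12 there (adjusted p = 0.131). Of 10 white adipocyte genes 4 were lower in HFoleic vs. Ref, Lipe by 1.19 (adjusted p = 0.000517) and also Retn, Cfd and Pnpla2, 1 was higher (Lep), and Fabp4, with the brightest probe, differed by 0.02 (adjusted p = 0.736). Over the 20 mice r with Ucp2 was 0.82 for Dio2 and -0.80 for Adrb3. The part of macrophage RNA in the values of these genes was not tested.

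Around these genes, 8 lists of 117 genes of the wider pathway were read, of which 114 genes were tested. In HFoleic vs. Ref 12 were higher, 25 were lower and 77 did not pass the test, against 15.2% higher and 16.7% lower among all tested genes, and the median log2 difference was -0.08. In HFepa vs. Ref 1 gene was higher, 0 were lower and 26 had an unadjusted p under 0.05, against 21.6% of all tested genes. In HFepa vs. HFoleic limma called 0, and 34 had an unadjusted p under 0.05, against 20.8% of all tested genes. The gene called in HFepa vs. Ref was Rbl1, which codes for the pocket protein p107, at 0.46 ± 0.12 (adjusted p = 0.0485).

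**Figure D5:**
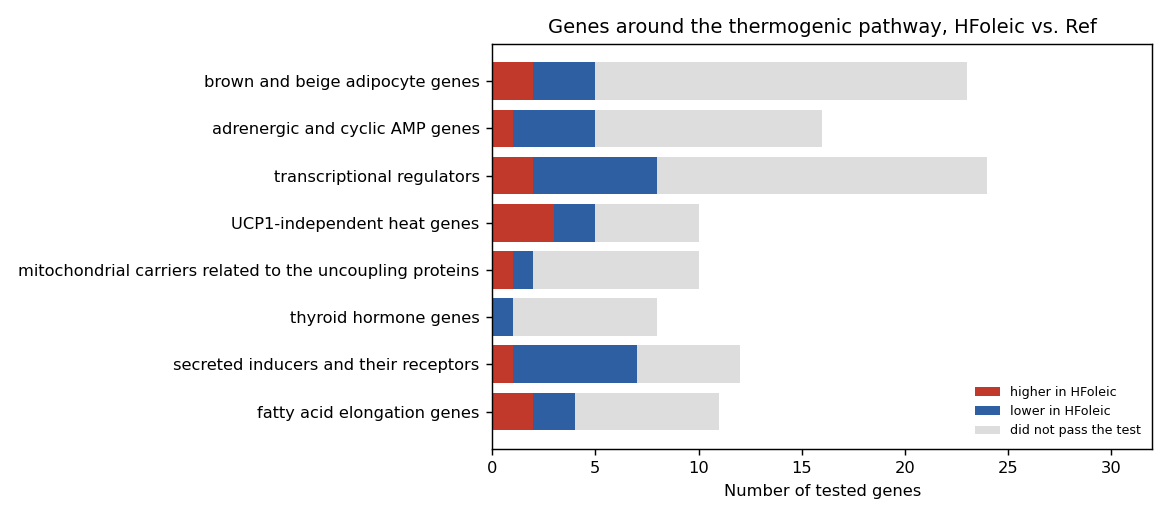
Number of tested genes (horizontal axis) of each of the 8 lists that were higher, lower or did not pass the test in HFoleic vs. Ref. The bar of the secreted inducers and their receptors shows 6 lower and 1 higher of 12, and that of the brown and beige genes 3 lower and 2 higher of 23, where 16.7% of all tested genes were lower and 15.2% higher.

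Of 23 brown and beige adipocyte genes, 2 were higher, 3 were lower and 18 did not pass the test in HFoleic vs. Ref (median -0.07). Otop1, a proton channel gene, rose by 2.49 ± 0.50 (adjusted p = 0.00139), from 6.36 to 7.54 in Ref mice to 7.20 to 10.49 in HFoleic mice, where mouse 1 alone lay in the Ref range. The transcription factor gene Ebf2 was lower by 0.82 ± 0.13 (adjusted p = 0.000481) with no overlap of the groups, and Mtus1 and Letmd1 were lower by 0.59 and 0.25. Of the 8 genes of the list named above for their level in HFepa mouse 7, Kcnk3 was higher by 0.47 ± 0.14 (adjusted p = 0.0174). The other 7 did not pass the test, with Cidea at -0.76, Ppara at -0.21, Slc36a2 at 0.07, Cox8b at 0.11, Cox7a1 at 0.46, Fabp3 at 0.52 and Cpt1b at 0.53 (adjusted p of 0.17 for Cox7a1 to 0.84 for Cox8b).

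Of 16 adrenergic and cyclic AMP genes, 1 was higher and 4 were lower (median -0.08). Pde3b, the phosphodiesterase through which insulin restrains fat breakdown, was lower by 0.86 ± 0.20 (adjusted p = 0.00336) and Crtc2, a coactivator of CREB, by 0.38 ± 0.09 (adjusted p = 0.00413). Npr3, the clearance receptor of natriuretic peptides, was higher by 0.66 ± 0.18 (adjusted p = 0.00846). Adrb1, named after its values were seen, was lower by 0.84 ± 0.24 (adjusted p = 0.0118).

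Of 24 transcriptional regulators, 2 were higher and 6 lower (median -0.10). Irf4, a factor that partners PGC-1alpha in the thermogenic programme, fell by 2.04 ± 0.41 (adjusted p = 0.00153), from 9.31 to 12.18 in Ref mice to 8.19 to 8.90 in HFoleic mice. The highest Irf4 values were those of Ref mice 6 and 3, the Ref mice with testis and epididymis genes. Sirt1, a deacetylase, was lower by 0.40 ± 0.08 (adjusted p = 0.00163). Esrra, a nuclear receptor that drives mitochondrial genes, was higher by 0.52 ± 0.10 (adjusted p = 0.00123) and Rbl1 by 0.72 ± 0.13 (adjusted p = 0.000715).

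Of 10 genes of heat production that does not need UCP1, 3 were higher and 2 lower (median 0.30). The higher ones were Gamt, an enzyme of creatine synthesis, at 1.01, Ryr2, a calcium release channel, at 1.01, and Gatm, another creatine enzyme named after its values were seen, at 0.62. The lower ones were Atp2a2, the calcium pump SERCA2, at -0.25 and Aifm2 at -0.32. Of 10 mitochondrial carriers related to the uncoupling proteins, Slc25a10, the dicarboxylate carrier, was higher by 1.30 ± 0.30 (adjusted p = 0.00313), Slc25a30 was lower by 0.39 ± 0.11 (adjusted p = 0.0141) and 8 did not pass the test (median -0.0010).

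Of 12 secreted inducers and their receptors, 1 was higher and 6 were lower (median -0.41). Nrg4, a factor that brown fat secretes, was lower by 1.42 ± 0.23 (adjusted p = 0.000481), Vegfa by 0.81 ± 0.18 (adjusted p = 0.00263) and Fgfr1, a receptor of FGF21, by 0.39 ± 0.08 (adjusted p = 0.00152). Metrnl was higher by 1.62 ± 0.35 (adjusted p = 0.00241), and its levels of 13.68 and 12.98 in HFepa mice 1 and 6 lay far above the 11.09 to 11.92 of the other HFepa mice. Of 8 thyroid hormone genes, Ncor1, a corepressor, was lower by 0.45 ± 0.10 (adjusted p = 0.00294) and the other 7 did not pass the test (median -0.08). Of 11 fatty acid elongation genes 2 were higher and 2 lower (median 0.07), namely Elovl1 at 0.41, Tecr at 0.53, Elovl6 at -0.73 and Hacd2 at -0.42.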

How the data were processed

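The authors scanned 1-colour Agilent arrays and read them with Agilent Feature Extraction (version 10.10.1.1), and the deposited files hold the spot intensities before normalization. A table of log2 values that the authors normalized was also deposited, and served as an alternative only. It holds 38168 probes, of which 38132 were tested here. The labels and the study's methods gave the groups, and the file headers the probe positions (mm9) and slides.

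From the median spot intensity, log2 was taken without background subtraction, marked outlier spots were left out, arrays were quantile-normalized, and spots of a probe were averaged. Median raw signal was 83 to 114 per array and 66.06% to 71.88% of spots were well above background. The number of arrays limits the precision. Probes well above background on at least 6 arrays were kept, giving 39390 of 56605. A linear model over the 3 groups with empirical Bayes moderation was fitted in limma 3.58.1 (R 4.3.3), after a check on simulated data, with the Benjamini-Hochberg correction taken across every probe tested.

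The 10 genes and all lists were chosen with earlier results of these data known. Of each pathway list at most the 4 called genes with the smallest p were named, or the 1 with the smallest p where none was called, and 1 gene that this rule names is not reported here. Marker genes other than the one with the brightest probe of a list, and genes named for their level in HFepa mouse 7, were named after their values were seen. Likeness between genes is Pearson's r over brightest probes. Alternatives were the processed signal minus its 75th percentile, normexp background correction (offset 50), median centring, no filter, marked spots kept, the authors' values, slide or mouse number as a block, array weights, only the compared groups, the mean of all probes, leaving out each mouse, and leaving out the 5 arrays with testis or epididymis genes (chosen after seeing the data). All 10 genes matched RefSeq symbols, and 7 had a promoter window.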

Additional observations from a re-analysis of the deposited data

Results flagged for a closer look

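Ucp1 in HFepa mouse 7, at a log2 level of 12.40, lay apart from the other 7 mice of its group, the next of which was at 6.23. The gap was 0.857 of the group's range, against a critical value of 0.526 in Dixon's test.

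Elovl3 in HFoleic mouse 6, at 8.39, lay apart from the other 5 mice of its group, the next of which was at 6.31. The gap was 0.754 of the range, against a critical value of 0.625. Chance sets apart about 1 in 20 groups in this test, which was run for each of the 10 genes in each of the 3 groups.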

How the results depend on the processing

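In HFoleic vs. Ref, the differences of Ucp2, Ucp3, Dio2, Prdm16, Ppargc1a and Adrb3 kept their direction in 12 of 12 alternatives, and were called in 10, 9, 10, 11, 10 and 10 of them. With the mouse number as a block, 7873 probes and 1 of the 10 genes (Prdm16) were called in HFoleic vs. Ref, and without the 5 arrays with testis or epididymis genes 6382 probes and 0 genes, a fit with fewer mice. The cause under the block was not tested. The labels do not say whether the numbers pair the mice. Deviations of same-numbered mice correlated between -0.59 and 0.56, and 4 to 6 pairs per comparison are too few to decide it. The block left 25 probes in HFepa vs. Ref and 0 in HFepa vs. HFoleic. Without the filter, Ucp3 was no longer called (adjusted p = 0.0518, 0.00537 to 0.132 over its alternatives), and with only the compared groups Ppargc1b was called at -0.27 (adjusted p = 0.0361, up to 0.501 over its alternatives). The cause was not tested in either case.

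In HFepa vs. Ref, 1 gene, Prdm16, was called with normexp, with the authors' values, with array weights and with the mean of all probes. Called probes there were 575 with median centring, 583 without the filter, 1459 with array weights, 140 with only the compared groups and 0 without the 5 arrays, against 892. In HFepa vs. HFoleic, called probes were 0 with the processed signal, normexp, median centring, only the compared groups and without the 5 arrays, 1297 with slide as a block and 4575 with array weights, against 1. Array weights called 3 genes there, Ucp2 at -0.85, Ucp3 at -0.72 and Dio2 at -0.48. The cause of these changes was not tested.

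Leaving out 1 mouse gave 9833 to 13175 probes and 4 (without HFoleic mouse 6) to 6 genes in HFoleic vs. Ref, 130 (without Ref mouse 6) to 2513 (without HFepa mouse 3) probes and 0 to 1 genes in HFepa vs. Ref, and 0 to 2867 (without HFepa mouse 1) probes and 0 to 2 genes in HFepa vs. HFoleic. The HFepa mean of Ucp1 was 5.76 without mouse 7, and the HFoleic mean of Elovl3 5.88 without mouse 6.

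Differences that changed sign were all uncalled. Tmem26 in HFepa vs. Ref went to -0.070 with median centring, -0.0022 with the authors' values, -0.028 with array weights, -0.059 without the 5 arrays and -0.037 to 0.053 without 1 mouse. Prdm16 in HFepa vs. HFoleic went to -0.0057 with array weights and -0.014 to 0.067 without 1 mouse. Elovl3 in HFepa vs. HFoleic went to 0.031 with array weights, 0.089 without the 5 arrays and -0.32 to 0.34 without 1 mouse, and in HFoleic vs. Ref to -0.062 to 0.57 without 1 mouse. Dim probes such as Ucp1, Tmem26 and Dio2 limit what can be read, since their signal was not well above background in part of the mice.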

Other observations

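The genes most like the other members over the 20 arrays, which share groups and slides, are given as a description. For Adrb3 they were Slc22a23, Cluh and Uqcc3 (r = 0.95, 0.94 and 0.94), for Ppargc1a BX527879, Spata24 and Cx3cl1 (r = 0.94, 0.91 and 0.91) and for Prdm16 Tubg2, Sfrp5 and Mapre2 (r = 0.88, 0.84 and 0.84). Tmem26 was most like Zbtb21 (r = 0.77), and for Ppargc1b the nearest named gene was Cct5 (r = 0.78).

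Otop1 was also high in single HFepa mice, at 9.55 in mouse 7, 9.30 in mouse 1 and 8.97 in mouse 6, against 6.84 to 7.96 in the other 5. Irf4 was lowest of the HFepa group in mouse 6, at 8.27, and in mouse 1, at 8.53.

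Of the remaining cell type lists in HFoleic vs. Ref, 1 of 5 T cell genes (Cd2, 0.52) and 1 of 6 progenitor and fibroblast genes (Col1a1, 1.49) were higher, and 1 of 4 testis genes (Tnp2) was lower by 0.25. Of 4 B cell, 6 endothelial, 5 mesothelial, 3 epididymis and 6 liver genes 0 were called by limma, and of these lists 0 genes were called in HFepa vs. Ref or HFepa vs. HFoleic.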
